A study of Homo sapiens with 647 samples.

Results

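DUSP4, DUSP5 and DUSP6 are 3 of the 54592 gene rows of a count table of T47D cells. They were chosen by name as phosphatases that act on ERK. T47D is an estrogen receptor positive luminal breast cancer cell line. Lentivirus in the plasmid pLX307 gave lines with GFP, FGFR1, FGFR2 as wild type (FGFR2_WT) or with the changes M538I, N550K or K660N, or FGF3, beside an uninfected parental line; the labels do not say whether a line was a pool of cells or 1 clone. Cells stood in 96-well plates for 48 h and were then treated for 24 h with DMSO, fulvestrant (Fulv, 100 nM, an estrogen receptor degrader), palbociclib (Palbo, 1 µM, a CDK4/6 inhibitor), FIIN-3 (100 nM, a covalent FGFR inhibitor), trametinib (Tram, 500 nM, a MEK inhibitor), the ligand FGF2 or combinations. The dose of FGF2 is not given in the sources used here, and the FGF3 line had no FGF2 arm. Whole-transcript RNA sequencing (SMART-Seq2) gave 647 libraries. Their title numbers ran through 2 times, so they were handled as set 1 (64 groups of line and treatment) and set 2 (48 groups). Of the set 1 groups 57 held 6 libraries, 6 held 5 and 1 held 4, and of the set 2 groups 34, 11 and 3 did. Comparisons were made within a set.

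FGF binding to an FGF receptor starts a relay from RAS through RAF and MEK to the kinases ERK1 and ERK2. DUSP6 is a cytoplasmic phosphatase that removes phosphate from ERK, while DUSP5 does so in the nucleus and DUSP4 is a nuclear phosphatase that acts on ERK and also on JNK and p38. Their genes are themselves switched on by ERK signalling, so the proteins act as negative feedback on the pathway, and DUSP6 mRNA is widely used as a readout of ERK activity. ETS transcription factors, some of which ERK phosphorylates, bind DNA at a GGAA core.

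The promoter of DUSP6 is shown because this gene had the largest fitted change of the 3 in most of the comparisons below. The 250 bases before its RefSeq start site, from the minus strand of GRCh38.p14 at chr12:89352502-89352751, are printed 5′ to 3′. The counts themselves were made on hg19. Capitals mark the letters CGGAA, an ETS-type core, on either strand.

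DUSP6: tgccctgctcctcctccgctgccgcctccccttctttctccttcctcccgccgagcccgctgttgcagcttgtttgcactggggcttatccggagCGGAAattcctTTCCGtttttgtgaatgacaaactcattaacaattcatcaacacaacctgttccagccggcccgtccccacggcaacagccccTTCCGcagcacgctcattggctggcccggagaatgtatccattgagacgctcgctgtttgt

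CGGAA was found 1 time on the printed strand and 2 times on the other, where it reads TTCCG. It occurred on either strand in 30.3 percent of 35116 RefSeq windows of this length, so its presence is common. The AP-1 motif TGANTCA and the cAMP response motif TGACGTCA were not in these 250 bases; they occurred in 6.57 and 1.65 percent of the windows. Only DUSP6 of the 3 members had an entry in the promoter table used.

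Total counts per library ran from 512961 to 13012180 in set 1 (median 7570052.5) and from 619509 to 4804935 in set 2 (median 2887186). Nothing in the labels ties the replicate libraries to separate cultures, and the p-values therefore cover the spread among libraries, part of which may be technical. The luminal markers ESR1, GATA3, FOXA1, KRT8, KRT18, KRT19, EPCAM and CDH1 had reads in every library. The leukocyte marker PTPRC, the endothelial marker PECAM1 and the fibroblast collagen COL3A1 had a median of 0; another collagen, COL1A1, had reads in all libraries, and the stromal genes LUM (median 2.08 and 2.63 CPM in the sets) and DCN (0.253 and 0.545 CPM) in many; their part in the results was not tested. FGFR1 checked the label of its line at DMSO, with 58.6 to 874 CPM there (median 428.7 CPM) and a median of 7.06 CPM in the GFP line. FGFR2 had medians of 157.4 CPM in FGFR2_WT, 210.04 CPM in FGFR2_M538I, 313.2 CPM in FGFR2_N550K and 549 CPM in FGFR2_K660N against 14.1 CPM in GFP, so the receptor was not at 1 level in the lines compared, and a change in the receptor and its level cannot be told apart. FGF3 had a median of 147.8 CPM in its own line and 0 in the other 7. CPM is the count of a gene scaled to a common library size, with trimmed mean factors (TMM). In 14 libraries of set 1 and 2 of set 2 the mitochondrial RNA MT-RNR2 took under 5 percent of counts, against a median of 18 and 18.9 percent in the sets. They are called libraries that stand apart, and the DMSO groups of set 1 held 1 of them in GFP, 1 in FGFR1 and 2 each in FGFR2_WT, FGFR2_M538I and FGFR2_N550K. DUSP6 lay below its group's median in 16 of these 16 libraries and DUSP4 in 15, while DUSP5 did so in 5; the part this played in the results below was not tested beyond the values given without these libraries.

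Over the 64 groups of set 1 the group medians spanned 4.25 to 210.8 CPM for DUSP4, 0.65 to 7.0 CPM for DUSP5 and 0.56 to 244.2 CPM for DUSP6. In set 2 they spanned 1.17 to 193.5 CPM, 0.0 to 5.16 CPM and 1.40 to 284.5 CPM. When the groups were put in order by median, the libraries of neighbouring groups overlapped for 63 of 63 neighbour pairs of DUSP4, 63 of DUSP5 and 61 of DUSP6 in set 1, and for 46, 47 and 44 of 47 in set 2. With this many groups in order, neighbours tend to overlap, so their overlap does not show that the levels lack steps. DUSP5 was sparse: its median count per library was 14 in set 1 and 4 in set 2, and 9 libraries of set 1 and 48 of set 2 had no DUSP5 read. The pseudogenes DUSP5P1 and DUSP5P2 had reads in 78 and 26 libraries, at most 8 and 5 in a library, so how reads were split among these copies leaves some uncertainty in DUSP5.

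**Figure D1:**
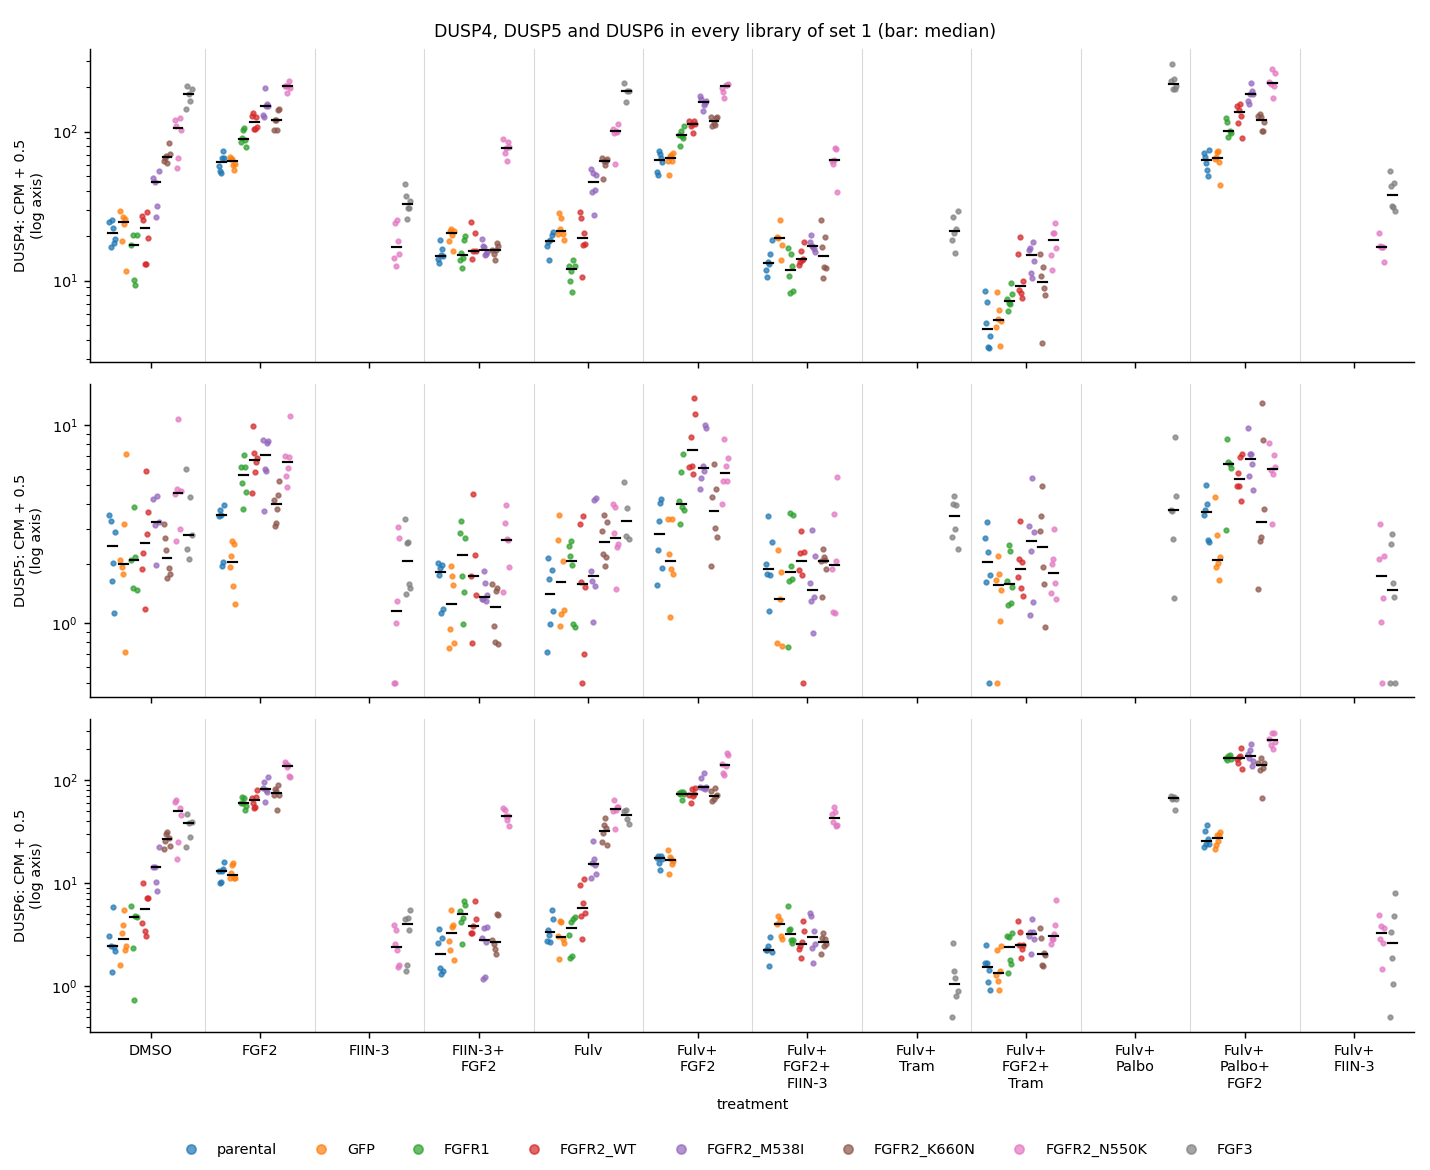
CPM + 0.5 on log axes for DUSP4, DUSP5 and DUSP6 in every library of set 1, by treatment (x axis) and line (colour), with a bar at each group's median. DUSP6 medians run from 0.56 CPM (FGF3 line, Fulv+Tram) to 244.2 CPM (FGFR2_N550K, Fulv+Palbo+FGF2), while DUSP5 medians stay between 0.65 and 7.0 CPM.

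Levels of different genes can be set side by side only per transcript length, for which the second deposited table gives TPM, a level normalised to transcript length and library, at DMSO and FGF2. At DMSO in the GFP line DUSP4 was the most abundant of the 3 (median 6.32 TPM), with DUSP6 at 1.65 TPM and DUSP5 at 1.17 TPM. With FGF2 that line had 17.4 TPM of DUSP4, 9.30 TPM of DUSP6 and 1.24 TPM of DUSP5. In the FGFR1 line the order of DUSP4 and DUSP6 medians was turned with FGF2: DUSP4 stood at 4.58 TPM at DMSO and 27.7 TPM with FGF2, and DUSP6 at 2.62 and 47.2 TPM. The same turn of medians was seen in FGFR2_WT, where DUSP4 went from 5.61 to 34.4 TPM and DUSP6 from 3.37 to 49.1 TPM, and in FGFR2_M538I, where DUSP4 went from 13.6 to 42.6 TPM and DUSP6 from 10.98 to 65.7 TPM. In 2 lines the median of DUSP6 exceeded that of DUSP4 already at DMSO. These were FGFR2_N550K (38.9 and 32.9 TPM, and 112.4 against 59.8 TPM with FGF2) and FGFR2_K660N (21.02 and 19.7 TPM, and 64.7 against 38.4 TPM with FGF2), and at DMSO the ranges of the 2 genes overlapped in both. In the FGF3 line at DMSO DUSP4 was above DUSP6, at 55.7 against 31.1 TPM. DUSP5 medians lay between 0.986 and 5.50 TPM over all these groups.

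The baseline comparison asks how much RNA of each phosphatase gene a line held with neither FGF2 nor drug added. The FGF3 line itself carries a secreted FGF. DUSP6, the cytoplasmic ERK phosphatase, lay at 1.13, 2.39 and 5.07 CPM (lowest, median, highest of 6) in the GFP line and at 0.876, 1.94 and 5.38 CPM in the parental line. It lay at 21.2, 26.2 and 31.1 CPM in FGFR2_K660N and at 16.9, 49.6 and 63.9 CPM in FGFR2_N550K. All libraries of these receptor lines were above all GFP libraries. The share of all genes without overlap between groups was not computed, here or below. In such bulk libraries a change in the share of cells that make an RNA and a change in RNA per cell cannot be told apart. In the 5 libraries of the FGF3 line it was 21.96, 27.6, 37.9, 38.7 and 46.6 CPM, again above all GFP libraries. The 5 libraries of FGFR2_M538I gave 7.97, 9.73, 13.97, 14.05 and 21.9 CPM, also without overlap. FGFR2_WT (2.58, 5.12 and 9.67 CPM) and FGFR1 (0.240, 1.87, 4.27, 4.28 and 5.58 CPM) overlapped the GFP line.

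DUSP4, the nuclear ERK and JNK phosphatase, was at 11.2, 24.3 and 28.8 CPM in the GFP line and stood at 60.98, 67.4 and 83.2 CPM in FGFR2_K660N and at 56.7, 105.97 and 122.4 CPM in FGFR2_N550K. It was highest in the FGF3 line, at 141.4, 160.9, 178.9, 192.2 and 200.5 CPM, above every library of the other lines at DMSO. In FGFR2_M538I it was 26.2, 31.1, 45.6, 48.04 and 54.3 CPM and overlapped GFP. DUSP5, the nuclear ERK phosphatase, overlapped the GFP line in all 7 other lines, with the highest median in FGFR2_N550K (2.11, 4.07 and 10.2 CPM, against 0.216, 1.497 and 6.69 CPM in GFP).

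A gene is called, or said to have risen or fallen, where its Benjamini-Hochberg adjusted p in edgeR's quasi-likelihood test, over all genes tested, is under 0.05. A value written a ± b is a log2 fold change with its standard error. The 21 member tests against GFP at baseline gave 6 calls, all higher. DUSP4 and DUSP6 were higher in FGFR2_N550K (2.10 ± 0.25 and 4.01 ± 0.41, adjusted p = 0.000622 and 0.00022). They were higher in FGFR2_K660N (1.59 ± 0.21 and 3.23 ± 0.30, adjusted p = 0.000407 and 1.52e-05) and in FGF3 (3.04 ± 0.25 and 3.73 ± 0.35, adjusted p = 3.16e-06 and 1.21e-05). Of all genes tested, 0.954, 0.923 and 3.24 percent were called higher in these lines. No member was called in the parental line (0.0 percent of all genes higher; 1898 genes at unadjusted p under 0.05, 57 called by DESeq2 in either direction, 0 by limma, 0.772 percent with no filter on low counts and 11 genes with the apart GFP library removed), in FGFR1 (0.00787 percent) or in FGFR2_WT (0.00808 percent). In FGFR2_M538I (0.0159 percent of genes higher) DUSP6 missed the threshold at 2.32 ± 0.38, adjusted p = 0.0532; DESeq2 called it (2.32, adjusted p = 0.000109). With the apart libraries removed it was 2.57 ± 0.36 (adjusted p = 0.00442), and DUSP4 was 1.03 ± 0.18 (adjusted p = 0.012) where it had been 0.89 ± 0.26 (adjusted p = 0.315). Limma on the second table gave 1.89 for DUSP4 in FGFR2_N550K (adjusted p = 0.101), which ended that call. The 7 comparisons share the same 6 GFP libraries.

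FGF2, a ligand of the FGF receptors, raised DUSP4 and DUSP6 in the control lines too. DUSP6 reached 10.7, 11.5 and 15.4 CPM in the GFP line and 9.53, 12.6 and 15.7 CPM in the parental line, above every DMSO library of each. In the FGFR1 line it reached 51.4, 59.7 and 67.9 CPM, 13.99-fold the DMSO median. It reached 53.2, 63.6 and 80.8 CPM in FGFR2_WT (12.4-fold) and 60.99, 81.8 and 106.97 CPM in FGFR2_M538I (5.85-fold). In FGFR2_K660N it reached 51.2, 74.6 and 89.4 CPM (2.85-fold) and in FGFR2_N550K 108.2, 136.9 and 149.9 CPM (2.76-fold). Among the 4 FGFR2 lines, those with more DUSP6 at DMSO had the smaller ratios of medians. The DMSO median is the divisor of that ratio, so such an order can arise from the arithmetic alone. FGF2 and DMSO libraries did not overlap in any of the 7 lines, for DUSP6 or for DUSP4, and how many of all genes do the same was not computed.

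DUSP4 had smaller fitted changes with FGF2 than DUSP6. It reached 54.4, 62.6 and 67.3 CPM in GFP, 51.9, 62.1 and 74.1 CPM in the parental line and 78.2, 88.9 and 105.5 CPM in FGFR1. It reached 103.02, 115.9 and 133.1 CPM in FGFR2_WT, 124.02, 148.1 and 197.2 CPM in FGFR2_M538I, 102.1, 118.9 and 141.6 CPM in FGFR2_K660N and 180.3, 201.3 and 218.7 CPM in FGFR2_N550K. All libraries of the FGFR1 and FGFR2 lines with FGF2 were above those of both control lines with FGF2.

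DUSP5 in the FGFR1 line was 0.975, 0.999, 1.58, 1.67 and 3.36 CPM at DMSO and 3.25, 5.12 and 6.59 CPM with FGF2; the 1 DMSO library that reached the FGF2 range is a library that stands apart. With FGF2 it had medians of 6.20 CPM in FGFR2_WT, 6.59 CPM in FGFR2_M538I, 3.48 CPM in FGFR2_K660N and 5.99 CPM in FGFR2_N550K. In GFP it was 0.745, 1.55 and 2.10 CPM with FGF2, inside the range at DMSO.

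The fits were made in classes of lines: the control lines (parental and GFP, with line as a term), FGFR1, the FGFR2 lines other than FGFR2_N550K, and FGFR2_N550K. In the control lines DUSP4 rose by 1.498 ± 0.12 (adjusted p = 7.43e-09) and DUSP6 by 2.22 ± 0.23 (adjusted p = 3.04e-07; n = 12 and 12 libraries), where 3.8 percent of genes were called higher; DUSP5 was at −0.02 ± 0.36. In FGFR1 all 3 rose, DUSP4 by 2.56 ± 0.23, DUSP5 by 1.53 ± 0.37 and DUSP6 by 4.10 ± 0.38 (adjusted p = 1.64e-05, 0.00799 and 1.83e-05; n = 6 and 5; 14.4 percent of genes higher). In the other FGFR2 lines all 3 rose as well, by 1.71 ± 0.16, 1.15 ± 0.19 and 2.52 ± 0.20 (adjusted p = 9.38e-10, 1.68e-05 and 1.54e-11; n = 18 and 17; 19.8 percent of genes higher). In FGFR2_N550K none was called: DUSP4 was at 1.06 ± 0.22 (adjusted p = 0.0809), DUSP5 at 0.53 ± 0.37 and DUSP6 at 1.57 ± 0.29 (adjusted p = 0.0562), where 0.0638 percent of genes were called higher. DESeq2 called both DUSP4 (1.03, adjusted p = 9.69e-05) and DUSP6 (1.55, adjusted p = 4.15e-05) there. Without the 2 libraries that stand apart, DUSP4 was 0.80 ± 0.13 (adjusted p = 0.00763) and DUSP6 1.22 ± 0.15 (adjusted p = 0.0013) in edgeR. Leaving such libraries out in the other classes made the changes of DUSP4 and DUSP6 smaller as well. They were 1.44 ± 0.10 and 2.21 ± 0.22 in the control lines, 2.47 ± 0.21 and 3.88 ± 0.24 in FGFR1 and 1.46 ± 0.14 and 2.23 ± 0.17 in the other FGFR2 lines, all still called. DUSP5 was then 0.28 ± 0.29 (not called), 1.88 ± 0.33 and 1.16 ± 0.18.

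The difference in FGF2 response between FGFR1 and the control lines was tested as an interaction. It was 1.08 ± 0.24 for DUSP4 (adjusted p = 0.00863) and 1.90 ± 0.42 for DUSP6 (adjusted p = 0.00828), with 1.26 percent of genes called higher, and 1.60 ± 0.57 for DUSP5 (adjusted p = 0.111). DUSP5 passed in limma on the second table (1.21, adjusted p = 0.0142) and after removal of the apart libraries (1.61 ± 0.49, adjusted p = 0.0435). For the FGFR2 lines other than FGFR2_N550K the interaction was 0.21 ± 0.21 for DUSP4, 1.18 ± 0.39 for DUSP5 and 0.29 ± 0.31 for DUSP6, none of them called in edgeR (adjusted p = 0.681, 0.101 and 0.703; 0.719 percent of genes higher). DUSP5 was called there by limma (0.89, adjusted p = 0.0156). That fit gave these lines a shared FGF2 effect, though their DUSP6 medians moved by unlike amounts. They went from 5.12 to 63.6 CPM in FGFR2_WT, 13.97 to 81.8 CPM in FGFR2_M538I and 26.2 to 74.6 CPM in FGFR2_K660N. The control medians went from 2.39 to 11.5 CPM (GFP) and 1.94 to 12.6 CPM (parental). The FGFR2 lines were not tested against the controls one by one.

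Fulvestrant alone called no member in 14 tests over 5 classes by edgeR or by DESeq2; 2 DUSP5 tests had an unadjusted p under 0.05, in the control lines (−0.85 ± 0.41) and in FGFR2_N550K (−0.97 ± 0.44). The share of genes called in either direction was 1.53 percent in the control lines, 0.0791 percent in FGFR1, 1.8 percent in the other FGFR2 lines, 0.00793 percent in FGFR2_N550K and 0.0 percent in FGF3 (410 genes at unadjusted p under 0.05, 4 called by DESeq2). DUSP6 with fulvestrant was 1.34, 2.48 and 3.77 CPM in GFP and 33.5, 52.8 and 64.2 CPM in FGFR2_N550K, overlapping DMSO in both. The 4 FGF3 libraries with fulvestrant gave 37.04, 41.5, 50.1 and 50.6 CPM. The fitted change of DUSP6 was 0.16 ± 0.27 in the control lines, 0.23 ± 0.16 in the other FGFR2 lines, 0.20 ± 0.27 in FGFR2_N550K and 0.31 ± 0.22 in FGF3. For DUSP4 it lay between −0.43 ± 0.26 (FGFR1) and 0.04 ± 0.14 (FGF3).

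With fulvestrant present, FGF2 raised the members in 10 of 12 tests. DUSP6 in FGFR1 went from 1.40, 3.19 and 4.23 CPM to 63.6, 73.9 and 76.7 CPM, 23.2-fold in the medians. The fitted changes of DUSP4, DUSP5 and DUSP6 were 1.67 ± 0.10, 0.82 ± 0.34 (not called) and 2.45 ± 0.16 in the control lines (7.34 percent of genes higher). They were 3.06 ± 0.15, 1.59 ± 0.38 and 4.58 ± 0.24 in FGFR1 (12.7 percent), and 1.74 ± 0.13, 1.64 ± 0.29 and 2.39 ± 0.20 in the other FGFR2 lines (17.9 percent). In FGFR2_N550K DUSP4 and DUSP6 passed here, at 1.03 ± 0.16 and 1.496 ± 0.18 (adjusted p = 0.00942 and 0.00124), with 0.257 percent of genes called higher. DUSP5 was not called there at 1.2 ± 0.33 (adjusted p = 0.161), but was by DESeq2 (1.22, adjusted p = 0.0292) and without the 1 library that stands apart (1.36 ± 0.32, adjusted p = 0.0198).

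**Figure D2:**
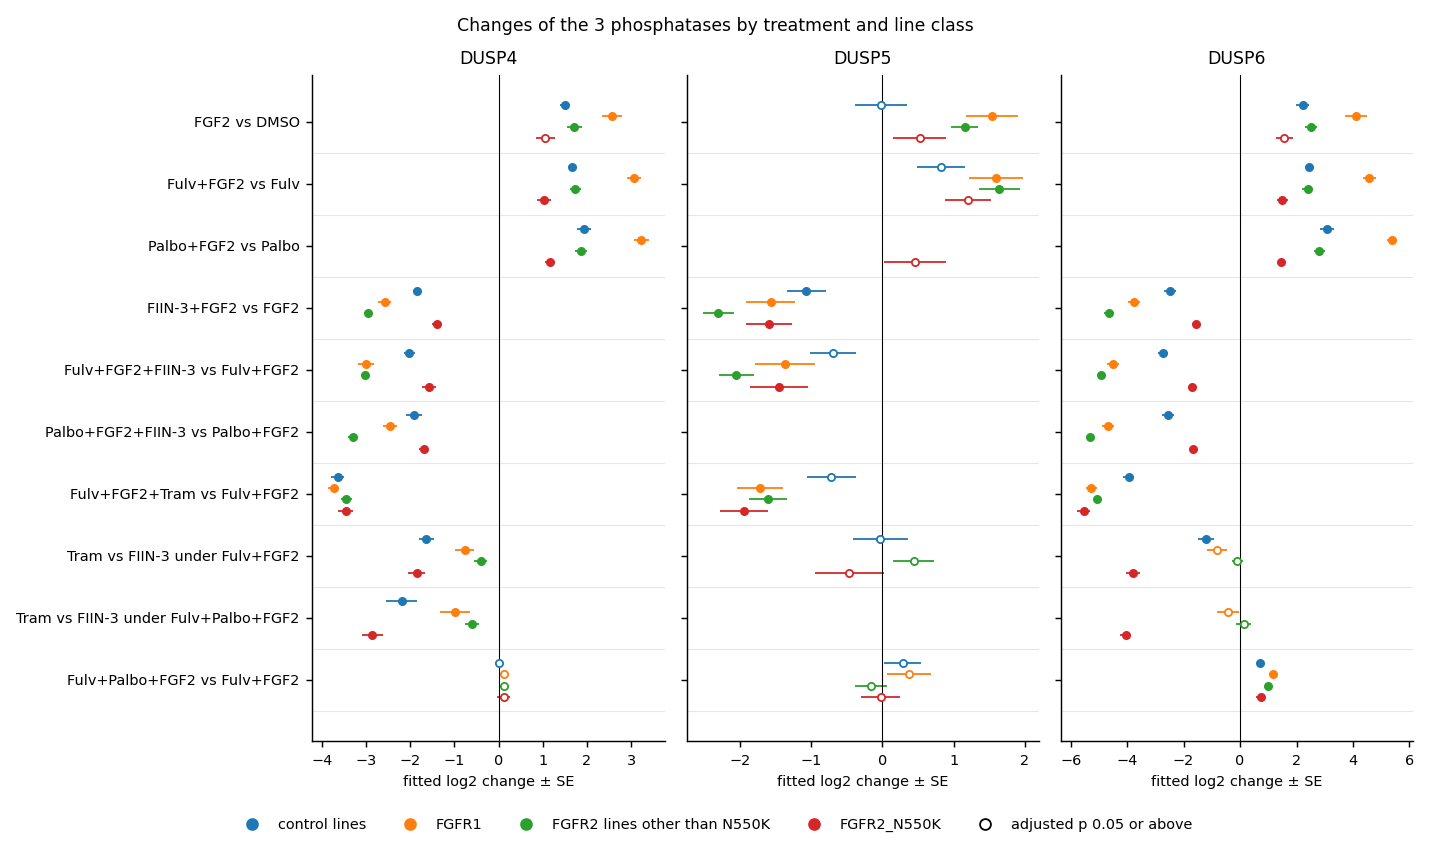
Fitted log2 change ± standard error (x axis) of DUSP4, DUSP5 and DUSP6 in 10 comparisons (y axis) for the 4 line classes (colour); filled points have an adjusted p under 0.05 and a gene filtered out has no point. In FGFR2_N550K, FIIN-3 on FGF2 gives −1.39 for DUSP4 and −1.56 for DUSP6, smaller than in the other classes, while trametinib gives −3.46 and −5.54, inside or beyond their range.

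FIIN-3, which binds FGF receptors covalently, was added to FGF2 to ask how much of the level with FGF2 it left. DUSP6 was 0.827, 1.57 and 3.13 CPM in the parental line and 1.30, 2.77 and 5.04 CPM in GFP. It was 2.10, 4.51 and 6.27 CPM in FGFR1, 2.77, 2.78, 3.34, 3.96 and 6.27 CPM in FGFR2_WT, 0.686, 2.33 and 3.27 CPM in FGFR2_M538I and 1.58, 2.22 and 4.50 CPM in FGFR2_K660N. FGFR2_N550K was the exception among these lines, at 35.4, 44.9 and 53.1 CPM, above every FIIN-3 library of the other 6. The level left was 32.8 percent of the FGF2 median in FGFR2_N550K, 12.5 and 24.1 percent in parental and GFP, 7.56 percent in FGFR1, and 5.25, 2.85 and 2.98 percent in FGFR2_WT, FGFR2_M538I and FGFR2_K660N. The medians of the last 3 lines with FIIN-3 lie beside 1.94 and 2.39 CPM in the parental and GFP lines at DMSO. In FGFR2_N550K the median of 44.9 CPM lies beside 49.6 CPM in that line at DMSO and 1.92 CPM with FIIN-3 and no ligand. Its difference from DMSO was not tested.

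DUSP4 with FGF2 and FIIN-3 had medians of 14.2 CPM (parental), 20.3 CPM (GFP), 14.3 CPM (FGFR1), 15.4 CPM (FGFR2_WT), 15.6 CPM (FGFR2_M538I) and 15.6 CPM (FGFR2_K660N). In FGFR2_N550K it was 62.6, 77.6 and 88.4 CPM, again above all libraries of the other 6 lines. The level left was 38.6 percent there and between 10.5 percent (FGFR2_M538I) and 32.5 percent (GFP) elsewhere. The DUSP4 medians of FGFR2_N550K were 105.97 CPM at DMSO and 16.2 CPM with FIIN-3 and no ligand. DUSP5 had medians from 0.705 CPM (FGFR2_K660N) to 2.14 CPM (FGFR2_N550K).

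All 12 member tests were called lower. The fitted changes of DUSP4, DUSP5 and DUSP6 were −1.86 ± 0.09, −1.07 ± 0.27 and −2.48 ± 0.22 in the control lines (12.8 percent of genes lower) and −2.58 ± 0.15, −1.57 ± 0.35 and −3.75 ± 0.21 in FGFR1 (15.2 percent). They were −2.96 ± 0.09, −2.30 ± 0.22 and −4.65 ± 0.18 in the other FGFR2 lines (27.7 percent), and −1.39 ± 0.11, −1.59 ± 0.32 and −1.56 ± 0.13 in FGFR2_N550K (4.2 percent). The largest adjusted p of these calls was 0.00517 (DUSP5, FGFR2_N550K).

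The same addition with fulvestrant present gave 11 calls in 12 tests, all lower. DUSP6 was 35.7, 42.8 and 54.99 CPM in FGFR2_N550K and had medians from 1.74 CPM (parental) to 3.51 CPM (GFP) in the other lines. DUSP4 was 38.9, 63.8 and 77.05 CPM against medians from 11.2 CPM (FGFR1) to 18.7 CPM (GFP). The changes of DUSP4 and DUSP6 were −2.02 ± 0.12 and −2.73 ± 0.16 in the control lines (14.3 percent of genes lower) and −3.0 ± 0.18 and −4.49 ± 0.21 in FGFR1 (15.1 percent). They were −3.02 ± 0.09 and −4.94 ± 0.12 in the other FGFR2 lines (27.5 percent) and −1.57 ± 0.16 and −1.69 ± 0.17 in FGFR2_N550K (8.02 percent). DUSP5 was called lower in FGFR1 (−1.36 ± 0.42), the other FGFR2 lines (−2.05 ± 0.25) and FGFR2_N550K (−1.45 ± 0.41), and was not called in the control lines (−0.69 ± 0.32, adjusted p = 0.121).

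**Figure D3:**
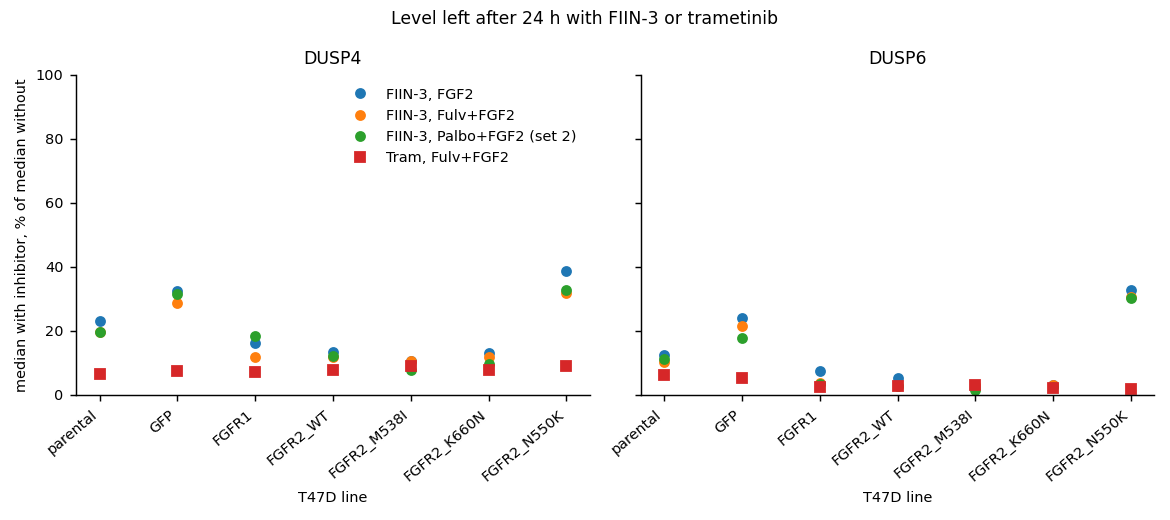
Median level with an inhibitor as a percent of the median without it (y axis), for DUSP4 and DUSP6 in the 7 lines treated with FGF2 (x axis); circles are FIIN-3 on 3 backgrounds and squares trametinib. DUSP6 in FGFR2_N550K keeps 30.3 to 32.8 percent with FIIN-3 and 1.84 percent with trametinib.

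Whether FIIN-3 lowered the phosphatases less in FGFR2_N550K than in the other FGFR2 lines was tested directly. On FGF2 the interaction was 1.59 ± 0.16 for DUSP4 and 3.11 ± 0.28 for DUSP6 (adjusted p = 6.34e-10 and 4.95e-11; 1.8 percent of genes higher). On fulvestrant with FGF2 it was 1.41 ± 0.17 and 3.22 ± 0.21 (adjusted p = 1.4e-07 and 6.43e-17; 1.41 percent). On palbociclib with FGF2, in set 2, it was 1.59 ± 0.18 and 3.65 ± 0.19 (adjusted p = 6.7e-09 and 1.68e-23; 0.62 percent). DUSP5 was called in none of the 3 (0.73 ± 0.39, 0.56 ± 0.49 and 0.76 ± 0.75).

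FGFR2_N550K also had arms with FIIN-3 and no ligand. DUSP6 there was 1.04, 1.92 and 3.45 CPM, 3.86 percent of its DMSO median and within the range of the DMSO libraries of the control lines. DUSP4 was 12.04, 16.2 and 25.1 CPM, 15.3 percent of its DMSO median. The changes against DMSO were −2.38 ± 0.26 (DUSP4), −1.81 ± 0.59 (DUSP5) and −4.56 ± 0.40 (DUSP6), all called (adjusted p = 6.19e-05, 0.0365 and 2.38e-05; 15.9 percent of genes lower). The DUSP5 call was lost without the 1 FIIN-3 library of low depth (−1.75, adjusted p = 0.0557). With fulvestrant present DUSP4 changed by −2.52 ± 0.17 and DUSP6 by −4.21 ± 0.27 (18.9 percent of genes lower), and DUSP5 was not called (−0.91 ± 0.54).

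FGF2 added on top of FIIN-3 then raised DUSP6 in FGFR2_N550K from a median of 1.92 to 44.9 CPM, a 23.4-fold ratio. The change was 2.04 ± 0.18 for DUSP4 and 4.60 ± 0.25 for DUSP6 (adjusted p = 1.01e-07 and 6.18e-12; 10.7 percent of genes higher). With fulvestrant it was 1.95 ± 0.17 and 3.99 ± 0.23 (adjusted p = 6.35e-09 and 2.13e-12; 18.5 percent). DUSP5 was not called in either (0.70 ± 0.49 and 0.66 ± 0.57). The libraries with FIIN-3 and FGF2 did not overlap those with FIIN-3 for DUSP4 or DUSP6, with or without fulvestrant.

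Trametinib blocks MEK, below the receptor, and was given with fulvestrant and FGF2. DUSP6 was 2.08, 2.58 and 6.36 CPM in FGFR2_N550K, 1.84 percent of its level without trametinib, and had medians from 0.861 CPM (GFP) to 2.71 CPM (FGFR2_M538I) in the other lines. All trametinib libraries lay below all libraries without it in each of the 7 lines, for DUSP4 and for DUSP6. DUSP4 was 3.16, 4.97 and 7.94 CPM in GFP, 3.03, 4.25 and 8.06 CPM in the parental line and 11.3, 18.1 and 23.9 CPM in FGFR2_N550K, with 6.62 to 9.08 percent of the level without trametinib left across the 7 lines. In both control lines every DUSP4 value with trametinib was under the lowest at DMSO.

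The fitted changes with trametinib were −3.65 ± 0.14 for DUSP4 and −3.94 ± 0.20 for DUSP6 in the control lines (15.3 percent of genes lower) and −3.73 ± 0.12 and −5.27 ± 0.20 in FGFR1 (5.83 percent). They were −3.45 ± 0.12 and −5.06 ± 0.13 in the other FGFR2 lines (11.1 percent) and −3.46 ± 0.16 and −5.54 ± 0.24 in FGFR2_N550K (4.93 percent), all called. DUSP5 was called lower in FGFR1 (−1.72 ± 0.32), the other FGFR2 lines (−1.60 ± 0.27) and FGFR2_N550K (−1.94 ± 0.33), and not in the control lines (−0.72 ± 0.34, adjusted p = 0.122). The interaction of trametinib with FGFR2_N550K against the other FGFR2 lines was −0.00 for DUSP4, −0.32 ± 0.50 for DUSP5 and −0.46 ± 0.25 for DUSP6. No gene was called in that fit by edgeR (0.0 percent; 2.07 percent of genes at unadjusted p under 0.05, 0 called by DESeq2).

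Set directly against FIIN-3 on the same background of fulvestrant and FGF2, trametinib left less DUSP4 in each of the 4 classes. The difference was −1.64 ± 0.17 in the control lines (adjusted p = 1.43e-09; 22.1 percent of genes lower), −0.77 ± 0.21 in FGFR1 (adjusted p = 0.00876; 16.4 percent), −0.41 ± 0.14 in the other FGFR2 lines (adjusted p = 0.0159; 21.7 percent) and −1.85 ± 0.20 in FGFR2_N550K (adjusted p = 4.05e-07; 5.81 percent). DUSP4 did not overlap between these arms in the control lines, such as 10.03, 12.6 and 18.2 CPM with FIIN-3 against 3.03, 4.25 and 8.06 CPM with trametinib in the parental line. It overlapped in FGFR1 and the other FGFR2 lines. DUSP6 was lower with trametinib in the control lines (−1.21 ± 0.27, adjusted p = 0.000497) and in FGFR2_N550K (−3.80 ± 0.25, adjusted p = 2.49e-10). It was not called in FGFR1 (−0.81 ± 0.35, adjusted p = 0.0893) or in the other FGFR2 lines (−0.09 ± 0.19, adjusted p = 0.706; 95 percent interval −0.465 to 0.276). DUSP5 was called in none of the 3 classes where it passed the filter on low counts.

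Set 2 gave the same pair of inhibitors on fulvestrant, palbociclib and FGF2. DUSP6 in FGFR2_N550K was 77.7, 83.3 and 94.5 CPM with FIIN-3 and 2.34, 4.37 and 7.81 CPM with trametinib. In the other lines its medians ran from 4.25 CPM (FGFR2_WT) to 5.97 CPM (GFP) with FIIN-3 and from 1.40 CPM (parental) to 5.46 CPM (FGFR2_K660N) with trametinib. Trametinib left less DUSP4 in the control lines (−2.20 ± 0.35, adjusted p = 4.1e-06; 20.3 percent of genes lower), FGFR1 (−0.996 ± 0.34, adjusted p = 0.0302; 12.5 percent), the other FGFR2 lines (−0.60 ± 0.16, adjusted p = 0.00156; 27.9 percent) and FGFR2_N550K (−2.86 ± 0.23, adjusted p = 1.54e-10; 10.5 percent). DUSP6 was lower in FGFR2_N550K (−4.06 ± 0.19), not called in FGFR1 (−0.44 ± 0.39) or the other FGFR2 lines (0.13 ± 0.27), and below the count filter in the control lines.

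Palbociclib, which blocks the cell cycle kinases CDK4 and CDK6, was added to fulvestrant and FGF2 in set 1, and DUSP6 rose. In FGFR1 it went from 63.6, 73.9 and 76.7 CPM to 157.2, 162.1, 162.6, 173.1 and 175.2 CPM. In GFP it went from 11.8, 16.4 and 20.7 CPM to 21.1, 27.2 and 31.1 CPM, and in FGFR2_N550K from 111.4, 140.5 and 185.6 CPM to 203.2, 244.2 and 287.7 CPM. None of these groups overlapped. FGFR2_K660N was the 1 line of 7 that overlapped (63.2, 70.5 and 84.6 CPM against 66.7, 139.6 and 162.6 CPM), through 1 library of low depth that stands apart. DUSP4 overlapped in all 7 lines, with medians of 64.2 and 64.2 CPM in the parental line and 201.4 and 210.8 CPM in FGFR2_N550K.

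The changes of DUSP6 with palbociclib were 0.71 ± 0.11 in the control lines (adjusted p = 4.33e-06; 13.4 percent of genes higher), 1.15 ± 0.11 in FGFR1 (adjusted p = 3.68e-07; 4.37 percent), 0.98 ± 0.09 in the other FGFR2 lines (adjusted p = 2.31e-12; 15.7 percent) and 0.73 ± 0.16 in FGFR2_N550K (adjusted p = 0.00675; 2.14 percent). Those of DUSP4 were 0.00 ± 0.09, 0.12 ± 0.12, 0.13 ± 0.07 and 0.11 ± 0.14, none called. DUSP5 was not called either, with values from −0.16 ± 0.23 to 0.38 ± 0.31. The difference between DUSP6 and DUSP4 in this response was not tested.

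**Figure D4:**
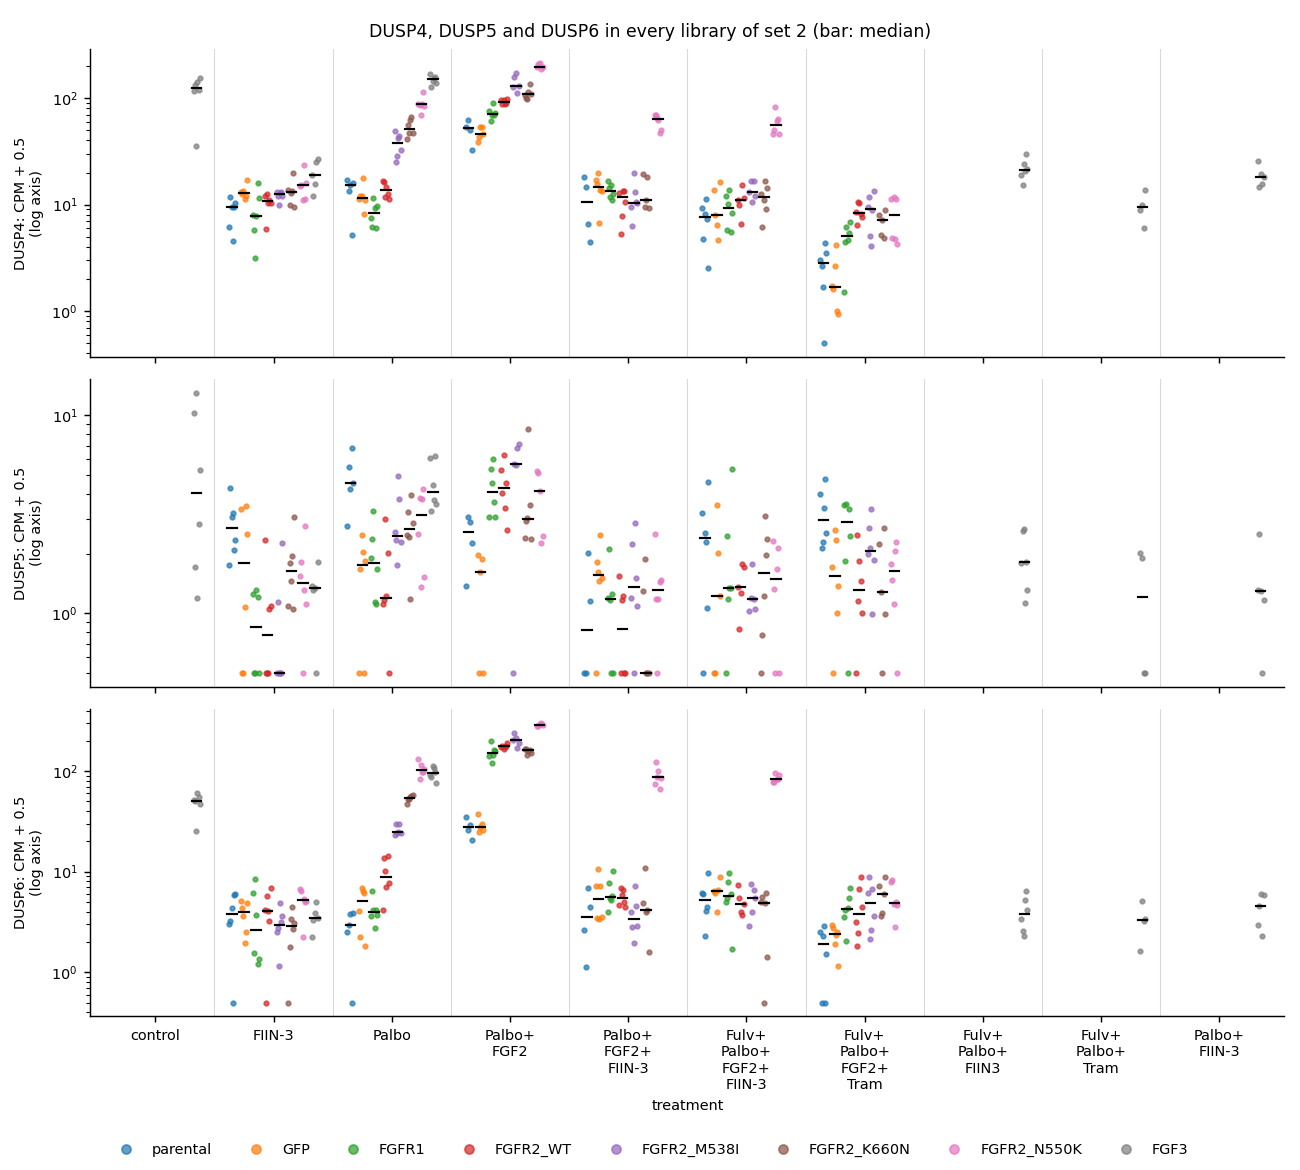
CPM + 0.5 on log axes for DUSP4, DUSP5 and DUSP6 in every library of set 2, by treatment (x axis) and line (colour), with a bar at each group's median. With Palbo+FGF2+FIIN-3, DUSP6 in FGFR2_N550K (66.3 to 123.7 CPM) lies above all libraries of the other lines.

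In set 2 the ligand was added on palbociclib alone. DUSP6 went from 2.25, 3.47 and 5.96 CPM to 120.7, 152.6 and 199.4 CPM in FGFR1, a 44.02-fold ratio of medians, the largest among the 3 backgrounds and 7 lines with FGF2. In FGFR2_WT it went from 3.69, 8.41 and 13.7 CPM to 166.1, 176.4 and 187.9 CPM (20.98-fold). In FGFR2_N550K it went from 82.8, 101.3 and 132.6 CPM to 280.7, 281.1, 284.5, 294.1 and 302.4 CPM (2.81-fold). The changes of DUSP4 and DUSP6 were 1.94 ± 0.16 and 3.09 ± 0.25 in the control lines (0.801 percent of genes higher) and 3.23 ± 0.17 and 5.38 ± 0.18 in FGFR1 (12.9 percent). They were 1.86 ± 0.13 and 2.81 ± 0.18 in the other FGFR2 lines (16.7 percent) and 1.16 ± 0.11 and 1.45 ± 0.11 in FGFR2_N550K (5.35 percent). All 8 were called, the largest adjusted p being 1.56e-07. DUSP5 passed the count filter in FGFR2_N550K only and was not called there (0.46 ± 0.44). DESeq2, run without that filter, called 10 members in these comparisons where edgeR called 8, so some of its calls were of DUSP5.

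FIIN-3 on palbociclib and FGF2 again left FGFR2_N550K apart from the rest, with DUSP6 at 66.3, 86.3 and 123.7 CPM and DUSP4 at 47, 63.2 and 69.6 CPM. The other lines had DUSP6 medians from 2.91 CPM (FGFR2_M538I) to 5.15 CPM (FGFR1) and DUSP4 medians from 9.93 CPM (FGFR2_M538I) to 14.3 CPM (GFP). The changes of DUSP4 and DUSP6 were −1.92 ± 0.17 and −2.55 ± 0.21 in the control lines (4.86 percent of genes lower) and −2.45 ± 0.16 and −4.68 ± 0.21 in FGFR1 (7.5 percent). They were −3.30 ± 0.11 and −5.33 ± 0.12 in the other FGFR2 lines (25.5 percent) and −1.70 ± 0.10 and −1.67 ± 0.11 in FGFR2_N550K (11.2 percent). All 8 were called. DUSP5 was under the count filter in each class here. DESeq2, run without that filter, called 11 members, so some of its calls were of DUSP5. The DUSP5 libraries of the 2 arms did not overlap in FGFR1 or in 2 of the 3 other FGFR2 lines. They overlapped in the control lines and in FGFR2_N550K.

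For these 7 lines FIIN-3 alone was set against palbociclib alone in set 2, so a difference can come from either drug. DUSP6 with palbociclib was 46.6, 53.8 and 56.98 CPM in FGFR2_K660N, 22.4, 24.1 and 29.4 CPM in FGFR2_M538I and 82.8, 101.3 and 132.6 CPM in FGFR2_N550K. With FIIN-3 it was 0, 2.38 and 3.96 CPM in FGFR2_K660N, 0.651, 2.46 and 4.36 CPM in FGFR2_M538I and 1.74, 4.72 and 6.25 CPM in FGFR2_N550K. None of these 3 lines overlapped, while FGFR2_WT did for DUSP4 and DUSP6. The difference of DUSP4 and DUSP6 was −2.54 ± 0.17 and −4.47 ± 0.19 in FGFR2_N550K (5.31 percent of genes lower) and −1.42 ± 0.15 and −3.13 ± 0.28 in the other FGFR2 lines (6.57 percent), all called. In the control lines neither was called (−0.26 ± 0.19 and 0.05 ± 0.37; 1.36 percent), nor was DUSP4 in FGFR1 (0.14 ± 0.34; 0.371 percent).

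The FGF3 line, which carries a secreted FGF, was read less deeply in set 1 (median total 3403813) and held 14 of the 20 libraries of low depth there, 4 of them among its 5 at DMSO; low depth means under 0.333 of the median total of the set. DUSP6 with FIIN-3 was 0.908, 3.49 and 5.05 CPM in set 1, and 1.75, 2.81, 2.97, 3.36 and 4.44 CPM in set 2, where the control group was at 24.8, 50.3 and 59.7 CPM. FIIN-3 changed DUSP4 and DUSP6 by −2.45 ± 0.17 and −3.59 ± 0.34 against DMSO (6.03 percent of genes lower) and by −2.27 ± 0.16 and −4.09 ± 0.38 with fulvestrant (7.79 percent). In set 2 the changes were −2.59 ± 0.31 and −3.95 ± 0.26 against the control (4.23 percent) and −3.02 ± 0.14 and −4.60 ± 0.21 with palbociclib (5.66 percent). All were called.

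DUSP4 in the FGF3 line was 25.6, 32.1 and 43.9 CPM with FIIN-3 in set 1, above all 6 libraries of FGFR2_N550K with FIIN-3 and no ligand. Trametinib with fulvestrant gave 14.8, 21.1 and 28.6 CPM of DUSP4 and 0, 0.556 and 2.15 CPM of DUSP6. The changes were −3.13 ± 0.16 and −5.90 ± 0.35 against fulvestrant (4.44 percent of genes lower), with DUSP5 at −0.13 ± 0.38. Against FIIN-3, DUSP4 was lower with trametinib in set 1 (−0.88 ± 0.19, adjusted p = 0.00206; 8.21 percent) and in set 2 (−1.23 ± 0.28, adjusted p = 0.0125; 3.04 percent). Without replicate 3 of the trametinib arm the set 2 value was −1.05 (adjusted p = 0.0622). DUSP6 was below the count filter in both.

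Palbociclib raised DUSP6 in the FGF3 line in set 2, from 24.8, 50.3 and 59.7 CPM to 75.02, 94.8 and 111.1 CPM (0.98 ± 0.17, adjusted p = 0.0012; 1.73 percent of genes higher). DUSP4 overlapped between these groups and was not called (0.36 ± 0.22). With fulvestrant in set 1 the change of DUSP6 was 0.54 ± 0.16 (adjusted p = 0.0425; 1.47 percent). That call was lost when any of the 4 fulvestrant libraries was left out (0.45 to 0.60), without the libraries of low depth (0.65, adjusted p = 0.238) and without a filter on low counts (0.51, adjusted p = 0.136).

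The log2 ratio of DUSP6 to DUSP4 counts, with 0.5 added to each, followed how the members moved against each other within a library; it is not a ratio per transcript length. With FGF2 it rose by 0.85 ± 0.26 in the control lines, 1.99 ± 0.61 in FGFR1, 0.87 ± 0.12 in the other FGFR2 lines and 0.59 ± 0.17 in FGFR2_N550K. The 2-sided permutation p-values, adjusted over 16 ratio tests, were 0.00266, 0.00266, 4e-05 and 0.00989; those of FGFR1 and FGFR2_N550K were exact. With trametinib it changed by −1.64 ± 0.29 in FGFR1, −1.57 ± 0.12 in the other FGFR2 lines and −2.04 ± 0.27 in FGFR2_N550K (permutation tests, adjusted p = 0.00266, 4e-05 and 0.00266). In the control lines it was −0.32 ± 0.23 with trametinib (permutation test, adjusted p = 0.181). The unadjusted p of the other FGFR2 lines, 1e-05, is the smallest that 100000 permutations can give. The DUSP6 to DUSP5 ratio moved the same way, past the threshold in 7 of 8 tests, the exception being FGF2 in FGFR2_N550K (1.07 ± 0.63, exact permutation test, adjusted p = 0.132).

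**Figure D5:**
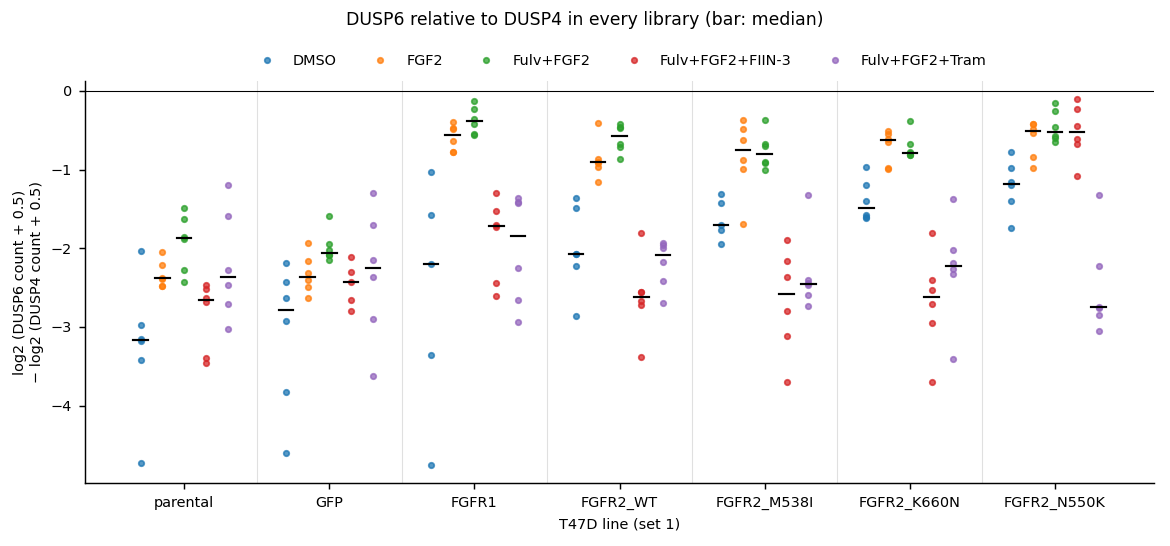
Log2 ratio of DUSP6 to DUSP4 counts, 0.5 added to each (y axis), in every library of 5 treatments (colour) for the 7 lines of set 1 (x axis), with a bar at the median. In FGFR2_N550K the trametinib libraries sit below the Fulv+FGF2 libraries, with a change of −2.04 ± 0.27.

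Among 7 other MAP kinase phosphatases (DUSP1, DUSP2, DUSP7, DUSP8, DUSP9, DUSP10 and DUSP16), 6 were tested with FGF2 against DMSO in each of the 4 classes. None was called by edgeR, with 1 unadjusted p under 0.05 (DUSP10 in the control lines, −0.51 ± 0.20). Of all genes, 3.8% were called higher in the control lines, 14.4% in FGFR1, 19.8% in the other FGFR2 lines and 0.0638% in FGFR2_N550K. The median change of the list in FGFR1 was −0.21. With trametinib on fulvestrant and FGF2, DUSP1, a nuclear phosphatase induced by stress and growth factors, was higher in the control lines (1.26 ± 0.43), FGFR1 (0.92 ± 0.21) and the other FGFR2 lines (0.93 ± 0.21), and with trametinib on fulvestrant alone in the FGF3 line (1.70 ± 0.47). It was not called in FGFR2_N550K (0.77 ± 0.28). DUSP8 was higher too in the control lines (0.81 ± 0.24) and the other FGFR2 lines (0.71 ± 0.25), and no member of the list was lower in these 5 comparisons. Of all genes tested, 13.1% were called higher with trametinib in the control lines, 5.48% in FGFR1, 10.8% in the other FGFR2 lines and 2.99% in the FGF3 line. Set directly against FIIN-3 in set 1, trametinib gave higher DUSP1 in the control lines (1.06 ± 0.40), FGFR1 (0.70 ± 0.24), the other FGFR2 lines (0.92 ± 0.20), FGFR2_N550K (1.80 ± 0.27) and, without FGF2, the FGF3 line (1.80 ± 0.40). The shares of all genes called higher there were 22.2%, 13.6%, 26.6%, 6.75% and 9.02%. In the same contrast DUSP8 was higher in the control lines (0.90 ± 0.31) and the other FGFR2 lines (1.33 ± 0.25). In the latter DUSP2 (0.64 ± 0.27) and DUSP7 (0.64 ± 0.25) were also higher. DUSP10 was lower there (−0.38 ± 0.16), with 21.7% of all genes called lower. In set 2, with palbociclib added to both, DUSP1 was higher with trametinib in FGFR1 (0.60 ± 0.18), the other FGFR2 lines (0.93 ± 0.14) and FGFR2_N550K (1.56 ± 0.15), where 12.6%, 25.6% and 12.1% of all genes were called higher, and DUSP16 in the other FGFR2 lines (0.40 ± 0.13). DUSP1 was not called there in the control lines (0.85 ± 0.36) or the FGF3 line (0.86 ± 0.56). With palbociclib on fulvestrant and FGF2, DUSP10, which acts on JNK and p38, rose in the control lines (0.61 ± 0.14) and the other FGFR2 lines (0.53 ± 0.19). DUSP16 rose in FGFR1 (0.75 ± 0.20) and the other FGFR2 lines (0.62 ± 0.13). Of all genes, 13.4% were called higher in the control lines, 4.37% in FGFR1 and 15.7% in the other FGFR2 lines. DUSP7 fell in the control lines (−0.69 ± 0.24), where 13.9% of all genes were called lower.

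A list of 14 other feedback and output genes of ERK was chosen with earlier results of these data known. A gene low in 1 arm could pass the count filter through the arm where it was high, so the counts of calls in this list are descriptions. With FGF2 in FGFR1, 12 of the 14 were tested and 10 were higher, against 14.4% of all genes. Among the 10 were the feedback inhibitors SPRY4 (6.18 ± 0.55), SPRED1 (2.11 ± 0.54) and SPRED2 (1.89 ± 0.23). The median of the list was 2.32 and that of all genes −0.01. In the other FGFR2 lines 11 of 13 were higher (median 1.13), against 19.8% of all genes. In the control lines, of 5 tested, SPRED2 was higher (0.97 ± 0.11) and SPRY1 lower (−0.64 ± 0.15). Of all genes, 3.8% were called higher and 2.56% lower there. In FGFR2_N550K 0 of 13 were called by edgeR (median 0.70), where 0.0638% of all genes were called higher. Of the 13, 6 had an unadjusted p under 0.05, the nearest to the threshold being SPRY4 (2.20 ± 0.41, adjusted p = 0.0562). FIIN-3 on FGF2 lowered 8 of 10 in FGFR1, 10 of 11 in the other FGFR2 lines and 8 of 13 in FGFR2_N550K. The shares of all genes called lower there were 15.2%, 27.7% and 4.2%. In the control lines, of 4 tested, FIIN-3 on FGF2 lowered SPRED2 (−1.26 ± 0.14), while SPRY1 (0.58 ± 0.14) and the early response gene IER3 (0.37 ± 0.08) were higher, with a list median of 0.19; 12.8% of all genes were called higher and 12.8% lower. Trametinib on fulvestrant and FGF2 lowered 7 of 8 in FGFR1, 11 of 12 in the other FGFR2 lines, 7 of 10 in FGFR2_N550K and 2 of 4 in the control lines. On fulvestrant alone it lowered 6 of 8 in the FGF3 line, and none was higher in these comparisons. The shares of all genes called lower were 5.83%, 11.1%, 4.93%, 15.3% and 4.44% in that order. Palbociclib on fulvestrant and FGF2, with which DUSP6 rose, gave few calls, in both directions. In the control lines 2 of 6 were higher, SPRY1 (0.46 ± 0.11) and PHLDA1 (0.87 ± 0.10), and 0 lower, with 13.4% of all genes called higher. In FGFR1, of 13, PHLDA1 was higher (0.93 ± 0.12) and the ETS factor ETV1 lower (−1.46 ± 0.47), with 4.37% of all genes called higher and 8.32% lower. In the other FGFR2 lines, of 13, PHLDA1 was higher (0.84 ± 0.09) and 5 were lower, ETV1 (−1.29 ± 0.30), ETV4 (−0.84 ± 0.13), FOSL1, EGR1 and FOS. Of all genes, 15.7% were called higher and 14.3% lower there. In FGFR2_N550K, of 13, none was higher and ETV4 was lower (−0.64 ± 0.18), with 5.64% of all genes called lower. Whether the classes differ in these calls was not tested.

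Over the 64 group means of set 1, the log2 CPM of DUSP4 and DUSP6 had a Pearson r of 0.941, that of DUSP5 and DUSP6 0.837 and that of DUSP4 and DUSP5 0.828. In the 48 groups of set 2 these were 0.92, 0.598 and 0.551. Groups share lines and treatments, and DUSP5 rests on few reads in set 2, so these are descriptions. The 5 genes of most alike pattern to DUSP4, out of 8384 compared, were DUSP6 (0.941), SPRED2 (0.94), CTSH (0.939), TNK2 (0.905) and ABCC11 (0.9), with r of 0.898 to 0.922 in set 2. Those for DUSP6 were ARFGEF3 (0.951), DUSP4 (0.941), FAM84B (0.934), SPRED2 (0.928) and SEPT9 (0.91), with 0.866 to 0.949 in set 2. Those for DUSP5 were FHL2 (0.894), MYEOV (0.887), TIMP1 (0.882), FHOD1 (0.864) and SLC16A3 (0.852), with 0.574 to 0.69 in set 2.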

How the data were processed

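The authors' deposited count table holds raw read counts per gene for 647 libraries; reads were aligned with STAR to hg19, per the submitters' processing notes, while the sources used here name no counting program, annotation or version. The second deposited table holds log2(TPM + 1) values, a scale read from the values themselves; 87 of its columns (DMSO and FGF2) were used and 560 were not. Groups came from the sample labels. Genes were kept by edgeR's filter at a minimum count of 10, scaled by TMM, and tested within a set by edgeR's quasi-likelihood test (edgeR 4.0.16, R 4.3.3) over all genes kept, in 75 comparisons, with line as a term where a class held several lines. A standard error is the log2 fold change divided by the square root of F. Alternatives used limma 3.58.1 and DESeq2 1.42.0. Ratios of members used 2-sided permutation tests, exact or with 100000 draws. The genes of most alike pattern were the 5 with the highest r over set 1 group means, among genes with a mean log2 CPM of at least 3. The members, the gene lists and the thresholds for libraries that stand apart were chosen with earlier results of these data known. Precision is limited by depth for DUSP5, whose median count per library was 14 in set 1 and 4 in set 2.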

Additional observations from a re-analysis of the deposited data

Results flagged for a closer look

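Among the groups of 4 to 6 libraries, examined for each of the 3 genes, 17 (5.06 percent) held a library whose gap to its nearest neighbour was a large share of the group's range; chance gives about 1 in 20 groups. Of these, 6 were for DUSP4, 7 for DUSP5 and 4 for DUSP6, and 3 of the libraries are among those that stand apart.

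For DUSP4, 1 library of the FGF3 line with Fulv+Palbo in set 1 was at 285.5 CPM with the next at 224.6 CPM, and was of low depth. The lowest library of FGFR2_N550K with Fulv was at 60.1 CPM with the next at 98.03 CPM, and stands apart. GFP with Fulv+Palbo+FGF2 had 1 library at 43.5 CPM with the next at 62.4 CPM. In set 2, 1 FGF3 control library that stands apart and is of low depth was at 34.8 CPM with the next at 116.7 CPM. With FIIN-3 in set 2 the lowest library of FGFR2_M538I was at 9.45 CPM with the next at 11.5 CPM, and that of FGFR2_WT at 5.37 CPM with the next at 9.86 CPM.

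For DUSP5, which rests on few reads, 1 library of FGFR2_N550K at DMSO that stands apart was at 10.2 CPM with the next at 4.28 CPM, and 1 with FGF2 at 10.7 CPM with the next at 6.49 CPM. In set 2 the highest library of FGFR2_K660N with Palbo+FGF2 was at 8.02 CPM with the next at 3.01 CPM. With FIIN-3 the highest was at 1.76 CPM in FGFR2_M538I (next 0.637 CPM) and 1.83 CPM in FGFR2_WT (next 0.585 CPM). FGFR2_M538I with Fulv+Palbo+FGF2+FIIN-3 had 1 library of 5 at 1.26 CPM (next 0.696 CPM), and with Palbo+FGF2 1 library of low depth at 0.0 CPM (next 5.09 CPM).

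For DUSP6, the lowest library of FGF3 with Fulv+Palbo in set 1 was at 51.2 CPM with the next at 65.4 CPM, and was of low depth. The lowest of FGFR1 with Fulv+FGF2 was at 63.6 CPM with the next at 72.7 CPM. The highest of FGFR1 with Fulv+FGF2+FIIN-3 was at 5.52 CPM with the next at 3.12 CPM, and the highest of FGFR2_N550K with Fulv+FGF2+Tram at 6.36 CPM with the next at 3.46 CPM.

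Responses differed between line classes in 4 interaction tests, for DUSP4 and DUSP6 in each (edgeR, adjusted p under 0.05). FGF2 raised them more in FGFR1 than in the control lines, by 1.08 and 1.90 on the log2 scale. FIIN-3 lowered them less in FGFR2_N550K than in the other FGFR2 lines, by 1.59 and 3.11 on FGF2, by 1.41 and 3.22 on fulvestrant with FGF2, and by 1.59 and 3.65 on palbociclib with FGF2 in set 2.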

How the results depend on the processing

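For the log2 changes of the members 1175 alternative values were computed: 1119 kept direction and side of the threshold, 9 lost a call (in 4 changes), 19 gained one and 28 turned sign, none of these a called change. Counts of members called stayed within 1.5 times of the reported counts in each family. The 4 changes that lost a call are given in the report with their values.

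The sign turned as follows, each change being uncalled, and the cause was not tested. Without the libraries that stand apart, DUSP5 was 0.37 in parental and 0.301 in FGFR2_K660N at baseline, 0.282 with FGF2 in the control lines, 0.0355 with Fulv in FGFR1 and 0.182 with Palbo against control in FGF3, DUSP4 was 0.0165 in FGFR2_WT at baseline, and DUSP6 was −0.03 with Fulv in FGFR2_N550K and −0.0391 for FIIN-3 against Palbo in the control lines. Without the libraries of low depth, DUSP5 was −1.22 for Fulv+Palbo against Fulv and 0.182 for Palbo against control, both in FGF3. With limma on the second table, DUSP4 and DUSP5 were 0.00688 and 0.068 in parental and DUSP5 was 0.162 in FGFR2_K660N at baseline, and DUSP5 was 0.195 with FGF2 in the control lines. With no filter on low counts, DUSP5 in the control lines was 0.0547 with FGF2 and 0.0066 for trametinib against FIIN-3. For DUSP4 in the control lines with Palbo added to Fulv+FGF2, the value was −0.0177 with no filter, −0.0096 with DESeq2 size factors and −0.0129 with DESeq2.

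Leaving out 1 library at a time, the values ran from −0.426 to 0.0355 for DUSP5 and −0.45 to 0.0867 for DUSP6 with Fulv in FGFR1, from −0.0171 to 0.117 for DUSP4 with Fulv in FGF3, and from −0.257 to 0.127 for DUSP5 with Fulv+Tram against Fulv in FGF3. DUSP5 for Fulv+Palbo against Fulv in FGF3 was −0.0196 without replicate 2 of Fulv.

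The labels do not say that title numbers pair libraries. Across treatments, libraries of 1 pair number and line deviated together only weakly (median r 0.0907 in set 1 and 0.0411 in set 2, against −0.0296 and −0.0167 for other pair numbers). Within a group, libraries of 1 pair number had a median r of 0.248 in set 1 and −0.152 in set 2. Those of other pair numbers had −0.313 and −0.224. Libraries of a set 1 group may therefore not be independent, while the p-values, those of the permutation tests included, treat them as independent. A replicate block takes out only a shift of a pair number that the groups compared share, so its p-values do not account for likeness within a group. With a replicate block DUSP4 was −0.00114 for Palbo added to Fulv+FGF2 in the control lines and 0.0054 in the trametinib interaction, and DUSP5 was −0.181 for Fulv+Palbo against Fulv in FGF3. The block also called DUSP6 in FGFR2_M538I at baseline (2.51, edgeR adjusted p = 0.00123) and, with FGF2 in FGFR2_N550K, DUSP4 (1.10, adjusted p = 0.0399) and DUSP6 (1.68, adjusted p = 0.0207).

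Of 56 alternatives for the ratios, 55 kept their verdict, and the DUSP6 to DUSP5 ratio with FGF2 in FGFR2_N550K was 1.23 on the second table (exact permutation test, adjusted p = 0.0498). Limma was not run for comparisons beyond the baseline, FGF2 and the FGF2 interactions, nor the second-table ratio for trametinib, since the columns they need were not used. Of the 5 genes of most alike pattern in set 1, 2 for DUSP4, 0 for DUSP5 and 3 for DUSP6 were also among the 5 from set 2. Few reads limit DUSP5, above all in set 2, where it was often under the filter on low counts.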
